A study of Vitis vinifera with 16 samples.

Results

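Seeds that dry out at maturity fill their embryo cells with very hydrophilic proteins that protect membranes and enzymes as water is lost. Late embryogenesis abundant (LEA) proteins form several unrelated families of this kind, named for the stage at which their transcripts build up. Dehydrins are the LEA family whose members carry lysine-rich segments, and they are also made by leaves and roots under drought, cold or abscisic acid. In Arabidopsis this programme is switched on in the embryo by the B3 factors ABI3 and FUS3 and the bZIP factor ABI5, after the storage proteins have begun to accumulate. Grape seeds are dry at maturity, and in stenospermocarpic seedless grapes fertilization takes place but the young seed stops growing before it matures.

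The genes described here were 3 of the 13411 genes in the deposited table: LOC100267524, an 11 kDa LEA protein, LOC100257252, an 18 kDa seed maturation protein, and LOC100232959, dehydrin 1a. They were picked by identifier after their values across variety and day had been seen, so their levels and differences are given as a description, without a test. Ovules of the grapevine varieties Zhongpu No. 18 (ZP) and Muscat Hamburg (MH) were sampled on days 35, 45, 55 and 61 from flowering, with 2 RNA libraries for each variety and day, 16 in all. The material was frozen with its skin on, and RNA-seq was run by a company on an Illumina NovaSeq X Plus. The study concerns lignin in ovules of seedless and seeded grapes. The sample labels do not say which variety is which (Muscat Hamburg is known as a seeded table grape), and they do not say whether the paired libraries came from separate vines, so their spread may be technical.

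The annotation placed both LEA-type genes on chromosome 8 and the dehydrin on chromosome 4, in the coordinates of assembly ASM3070453v1. LOC100267524 lay at chr8:21422143-21423062 on the minus strand and spanned 920 bases. LOC100257252 lay at chr8:21426877-21431056 on the same strand and spanned 4180 bases. Although their descriptions differ, both carried the same Pfam domain, LEA group 1. LOC100232959 lay at chr4:20481614-20482562 on the plus strand, spanned 949 bases and carried the dehydrin domain. No other annotated RefSeq gene overlapped any of them, and all 3 are protein-coding.

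Levels are in FPKM, fragments per kilobase of transcript scaled to the mapped fragments of the library, which can be compared between genes. The steps between low FPKM values put each library at 2.0e+07 to 3.0e+07 fragments, so that 1 fragment of LOC100267524 was worth 0.039 to 0.0584 FPKM.

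LOC100267524 was close to silent in ZP on every day and climbed at every sampling in MH. In ZP it was listed at 0 FPKM in both libraries of day 35, at 0.263 and 0.248 FPKM on day 45, at 0.189 and 0.819 FPKM on day 55, and at 0.501 and 0.824 FPKM on day 61. In MH it stood at 0.0579 and 0.212 FPKM on day 35, at 10.1 and 4.16 FPKM on day 45, at 48.7 and 24.8 FPKM on day 55, and at 492 and 374 FPKM on day 61. From day 45 on, every ZP library was below every MH library. The ZP levels rested on few fragments, 4 to 21 in the 6 libraries of days 45 to 61, against 12447 and 7049 fragments in the MH libraries of day 61. On day 35 the counts were 0 and 0 fragments in ZP and 1 and 4 fragments in MH, and a difference was not detectable at this depth (a count of 0 allows up to 0.119 and 0.138 FPKM in the ZP libraries, taken as 3 fragments and covering counting error only).

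The group means of LOC100267524 were 27.8-fold lower in ZP than in MH on day 45 (0.256 ± 0.0102 FPKM in ZP and 7.11 ± 4.18 FPKM in MH; SD, n = 2 each). They were 72.9-fold lower in ZP on day 55 (0.504 ± 0.445 FPKM in ZP and 36.7 ± 16.9 FPKM in MH). By day 61 the mean was 654-fold lower in ZP (0.662 ± 0.229 FPKM in ZP and 433 ± 83.6 FPKM in MH). On the log2(FPKM + 1) scale, which shrinks differences between low values, ZP minus MH was -0.18, -2.59, -4.60 and -8.02 on days 35, 45, 55 and 61, each with a standard error of 0.34. The change between days 35 and 61 was 0.73 ± 0.34 in ZP and 8.57 ± 0.34 in MH (SE). In MH each sampling stood above the one before it in both libraries, 52.6-fold, 5.17-fold and 11.8-fold by the means.

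The 18 kDa seed maturation protein gene, LOC100257252, followed the same course at a lower level. Its ZP values were 0.179 and 0.311 FPKM on day 35, 0.263 and 0.373 FPKM on day 45, 0.213 and 0.468 FPKM on day 55, and 0.627 and 0.949 FPKM on day 61. Its MH values were 0.217 and 0.279 FPKM on day 35, 2.14 and 1.39 FPKM on day 45, 17.8 and 7.89 FPKM on day 55, and 164 and 142 FPKM on day 61. On day 35 the varieties overlapped, with 6 and 9 fragments in ZP and 5 and 7 fragments in MH. On the later days no ZP library reached an MH library, and within ZP only day 61 stood clear of the earlier days.

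The mean of LOC100257252 was 5.55-fold lower in ZP than in MH on day 45, 37.7-fold lower on day 55 and 194-fold lower on day 61 (on day 61, 0.788 ± 0.228 FPKM in ZP and 153 ± 15.7 FPKM in MH; SD, n = 2 each). On the log2(FPKM + 1) scale ZP minus MH was -0.01, -1.06, -3.28 and -6.43 on days 35, 45, 55 and 61 (SE 0.27). Between days 35 and 61 the change was 0.52 ± 0.27 in ZP and 6.95 ± 0.27 in MH (SE). Of its rise in MH, the last interval, day 55 to day 61, held the largest fold by the means, 11.9-fold, after 7.11-fold and 7.28-fold in the intervals before.

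Dehydrin 1a, LOC100232959, was the only one of the 3 above 1 FPKM in ZP. ZP libraries held 0.0785 and 0.409 FPKM on day 35, 6.88 and 5.01 FPKM on day 45, 6.53 and 11.4 FPKM on day 55, and 13.4 and 14.2 FPKM on day 61. MH libraries held 0.915 and 0.84 FPKM on day 35, 25.6 and 16.3 FPKM on day 45, 110 and 51.7 FPKM on day 55, and 474 and 325 FPKM on day 61. The ZP libraries were below the MH libraries on all 4 days. The ZP libraries of days 45 and 55 overlapped each other, while those of day 61 were above both.

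Between days 35 and 45 the dehydrin 1a mean went up 24.4-fold in ZP and 23.9-fold in MH. The courses then parted, since from day 45 to day 61 the ZP mean moved only to 13.8 ± 0.571 FPKM while the MH mean reached 400 ± 105 FPKM (SD, n = 2 each). The mean was 3.60-fold, 3.53-fold, 8.97-fold and 29.0-fold lower in ZP than in MH on days 35, 45, 55 and 61. On the log2(FPKM + 1) scale ZP minus MH was -0.61, -1.64, -2.98 and -4.74 on those days (SE 0.34), and the change between days 35 and 61 was 3.58 ± 0.34 in ZP and 7.71 ± 0.34 in MH.

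**Figure D1:**
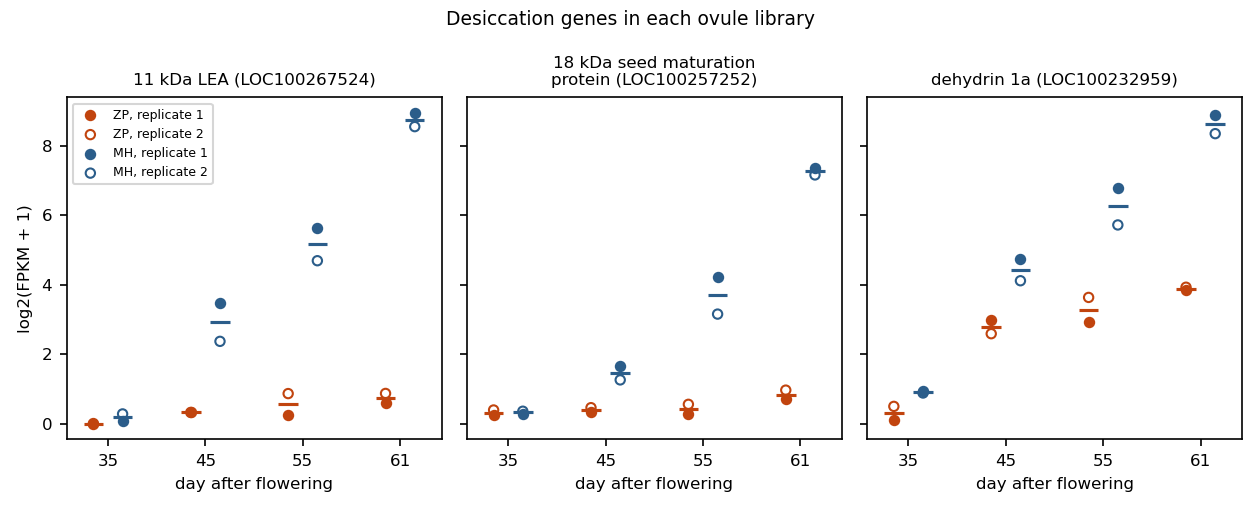
Level of each of the 3 desiccation genes in every library, as log2(FPKM + 1) against the day after flowering, with ZP left of MH at each day. Filled points are replicate 1, open points replicate 2, and bars are group means on the plotted scale. The MH points climb at every step in all panels, the ZP points of LOC100267524 and LOC100257252 stay below 1 FPKM throughout, and those of dehydrin 1a reach 13.4 and 14.2 FPKM on day 61.

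Put in order of their means, the 8 groups ran in one sequence for LOC100267524 and LOC100232959: ZP day 35, MH day 35, ZP days 45, 55 and 61, then MH days 45, 55 and 61. The same sequence held for LOC100257252, although its lowest 4 groups, with means between 0.245 and 0.34 FPKM, did not stand apart from one another. For LOC100267524 the ZP libraries of day 55 overlapped those of day 45 and of day 61, while those of day 61 lay above those of day 45. For all 3 genes the ZP libraries of day 61 lay below the MH libraries of day 45. ZP on day 61 had 0.153% of the MH day 61 mean for LOC100267524, 0.514% for LOC100257252 and 3.45% for LOC100232959.

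The balance among the 3 transcripts also differed along these courses. In MH from day 45 to day 61 the FPKM of LOC100267524 was 2.63 to 4.7 times that of LOC100257252, whereas in ZP on the same days the ratio was 0.666 to 1.75. In MH on day 35 it was 0.267 and 0.761, not above the ZP ratios. The ZP ratios rested on 4 to 23 fragments of either gene and those of MH on day 35 on 1 to 7, so they are imprecise. Dehydrin 1a had 14 to 34.6 times the FPKM of LOC100267524 in the ZP libraries of days 45 to 61. In MH the same ratio was 15.8 and 3.95 on day 35, 2.55 and 3.93 on day 45, 2.25 and 2.09 on day 55, and 0.963 and 0.869 on day 61. The 3 genes together made up 7.3e-05% to 0.00447% of all FPKM in ZP libraries and 0.000301% to 0.215% in MH libraries.

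Between LOC100267524 and LOC100257252, and on the same strand, lay a further gene with the LEA group 1 domain, LOC100262363, which the table describes only as a hypothetical protein. It was taken up after its position and values had been seen. It lay at chr8:21424491-21425225 and was separated from its neighbours by 1428 and 1651 bases, so that the 3 LEA group 1 genes filled 8914 bases with no other RefSeq gene between them. In ZP it stood at 0.281 and 0.195 FPKM on day 35, 7.69 and 6.89 FPKM on day 45, 1.87 and 3.2 FPKM on day 55, and 5.91 and 6.46 FPKM on day 61. In MH it stood at 5.16 and 3.53 FPKM on day 35, 29.1 and 16.3 FPKM on day 45, 117 and 73.8 FPKM on day 55, and 640 and 486 FPKM on day 61.

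The middle gene thus had the highest FPKM of the 3 neighbours in every MH library, and the ZP libraries were below the MH libraries on each day. In ZP it was higher on day 45 than on days 55 or 61, which was not the order of either neighbour. ZP minus MH on the log2(FPKM + 1) scale was -2.09, -1.46, -4.76 and -6.28 on days 35, 45, 55 and 61 (SE 0.28). These differences are given without a test, since the gene was picked with its values seen. How fragments that match more than 1 of these related genes were counted, and whether strand was used, is not given in the sources used here, so the split among them is uncertain.

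**Figure D2:**
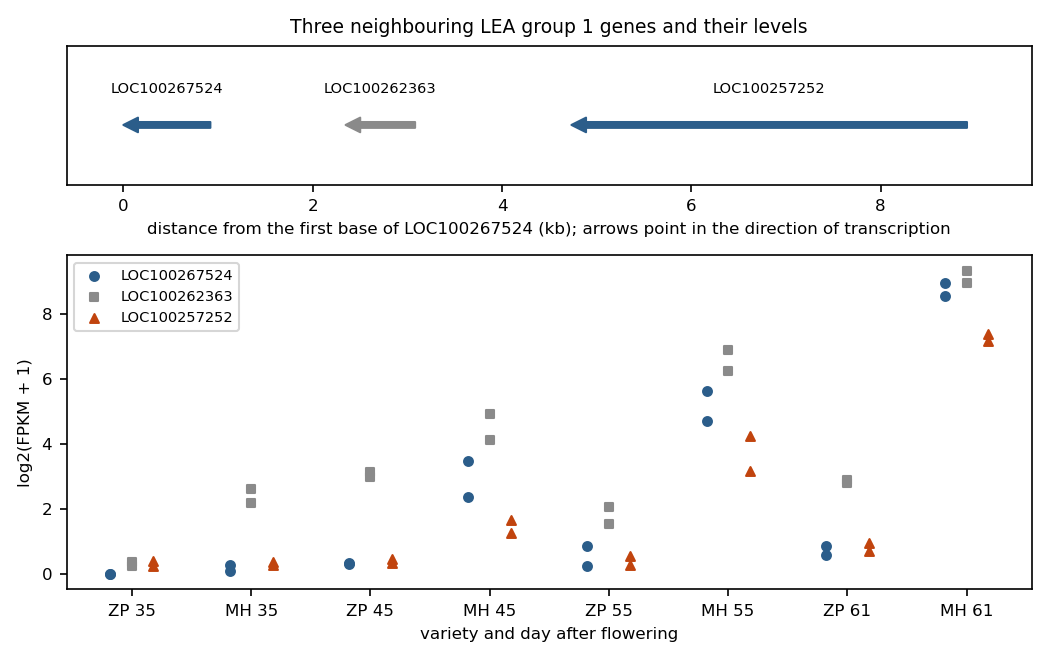
Upper panel, the 3 neighbouring LEA group 1 genes of chromosome 8 drawn to scale in kilobases, with arrows in the direction of transcription. Lower panel, their levels in each library as log2(FPKM + 1), by variety and day with ZP left of MH. The middle gene LOC100262363 is the only one of the 3 above 1 FPKM in ZP libraries.

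The table holds 17 other genes whose descriptions name a LEA protein, a dehydrin or a seed maturation protein, and all 17 passed the filter of at least 1 FPKM in at least 2 libraries. They were fitted with all 12637 genes tested, in 1 limma model with a mean for each of the 8 groups, and called at an adjusted p under 0.05. On day 35, 1 of the 17 was higher and 11 were lower in ZP than in MH, where 76.9% of all genes tested were called (45.8% higher and 31.1% lower). On day 45, 5 were higher and 10 lower (all genes 78.9%, of which 59.8% higher and 19.1% lower). On day 55, 4 were higher and 11 lower (all genes 78.2%, with 56.9% higher and 21.3% lower). On day 61, 5 were higher and 11 lower (all genes 74.6%, with 55.5% higher and 19.2% lower). The split on day 45 depended on the scaling, with 1 higher and 10 lower by quantile normalization and 2 higher and 10 lower by the other scalings. For all genes quantile normalization evened the split, to 5128 higher and 4844 lower on day 45 and 4888 each on day 61.

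The median difference of the 17 genes, ZP minus MH, was -0.78, -1.58, -2.93 and -4.66 on the log2 scale on days 35, 45, 55 and 61. The median of all genes tested was 0.24, 0.68, 0.64 and 0.56, which quantile normalization, median-ratio scaling and rescaling without storage, oil body and desiccation genes brought to between -0.02 and 0.19. Relative to the median as deposited, LOC100267524 was at -8.58, LOC100257252 at -6.99 and dehydrin 1a at -5.30 on day 61.

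Between days 35 and 61, 12 of the 17 genes rose and 1 fell in ZP, where 66.9% of all genes were called (31.9% higher and 35.0% lower). In MH also 12 rose and 1 fell, against 68.0% of all genes called (15.8% higher and 52.1% lower). The median change of the 17 was 1.07 in ZP and 3.28 in MH, beside -0.01 in ZP and -0.42 in MH for all genes. By quantile normalization 4170 of all genes rose and 3943 fell in MH, while 12 of the 17 rose and none fell. The time course differed between the varieties for all 17 by the interaction F-test, a test that also called 78.9% of all genes.

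The 17 genes were not of one kind. By their Pfam domain, looked up after the values were seen, 5 belong to the LEA_2 family, whose members (Lea14-A and the At1g64065-like proteins) are less hydrophilic than the other LEA families. Of these 5, 4 were higher and none lower in ZP on each of days 45, 55 and 61. Of all genes, 59.8%, 56.9% and 55.5% were higher on those days, so these counts were not far from all genes. The median difference of the 5 was 0.51, 1.49 and 1.32, beside 0.68, 0.64 and 0.56 for all genes. Between days 35 and 61, 4 rose and 1 fell in ZP, while none rose and 1 fell in MH (31.9% of all genes rose in ZP and 15.8% in MH). On day 45 only 1 of the 5 was still called higher by quantile normalization and 2 by the other scalings, whereas the counts of days 55 and 61 held. They were weakly expressed, the highest being LOC104882184, an At1g64065-like gene, at 6.23 ± 1.49 FPKM in ZP and 0.0404 ± 0.0572 FPKM in MH on day 61 (SD, n = 2 each).

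The other 12 included the most abundant genes of the list. All 12 rose in MH between days 35 and 61 (15.8% of all genes), and 8 rose in ZP (31.9% of all genes). On day 61, 11 were lower in ZP than in MH (19.2% of all genes). Some ZP rises were between low levels, such as LOC100263055 from 0.0221 to 0.983 FPKM and LOC100855168 from 0.249 to 1.33 FPKM. In MH all 12 had their highest mean on day 61, and 11 climbed at every sampling. LOC100265951 was the exception, with MH means of 8.9, 5.35, 12 and 62.9 FPKM. On day 61 the ZP mean was between 0.125% and 159% of the MH mean, with a median of 1.15%.

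Among them, LOC100258268, described as LEA protein 1, was the most abundant in MH, with 24.4 ± 7.8 FPKM in ZP and 1127 ± 182 FPKM in MH on day 61 (log2 difference -5.50 ± 0.37, adjusted p = 1.51e-08, limma). LOC100263055, the grape relative of the carrot embryonic protein DC-8, had 0.983 ± 0.0693 FPKM in ZP and 427 ± 9.38 FPKM in MH on that day (-7.76 ± 0.20, adjusted p = 2.81e-12, limma). LOC100255849, which is described as the Em-type protein B19.3, had 0.204 ± 0.2 FPKM in ZP and 163 ± 1.57 FPKM in MH (-7.10 ± 0.19, adjusted p = 3.35e-12, limma), and its change over time in ZP, 0.26 ± 0.19, did not pass the test. The 2 D-29 type genes LOC100252810 and LOC100241000 had 10.8 and 1.41 FPKM in ZP and 276 and 125 FPKM in MH as day 61 means, and both were lower in ZP on every day.

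On day 35 in MH the means of all 3 members were under 1 FPKM. LEA protein 1 already had 94 FPKM there and LOC100241000 24.2 FPKM, and 8 of the 12 were under 10 FPKM. Of the 12, 3 were under 1 FPKM, namely LOC100255849 at 0.645, LOC100854848 at 0.29 and LOC100855168 at 0.388 FPKM. LOC100854848 and LOC100855168 are D-34 type LEA genes, the family to which many seed maturation proteins belong, and they reached 40.1 and 12.5 FPKM in MH on day 61.

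The gene that was not lower in ZP on day 61 was the second dehydrin, ERD14 (LOC100254126), whose Arabidopsis namesake is induced by dehydration and cold in vegetative tissue. Its means in ZP were 114, 416, 428 and 1104 FPKM on days 35, 45, 55 and 61, and in MH 197, 256, 370 and 695 FPKM. It rose between days 35 and 61 in ZP (3.27 ± 0.18, adjusted p = 2.81e-09, limma) and in MH (1.81 ± 0.18, adjusted p = 9.2e-07, limma). ZP minus MH was -0.78 on day 35, 0.70 on day 45, 0.19 on day 55 and 0.68 on day 61 (SE 0.18), past the test on days 35, 45 and 61, but the sign on days 45, 55 and 61 turned under median-ratio scaling (-0.23, -0.66 and -0.17) and when the values were rescaled without storage, oil body and desiccation genes (-0.12, -0.54 and -0.03). On day 61 ZP thus held 1104 FPKM of ERD14 beside 13.8 FPKM of dehydrin 1a, and MH 695 FPKM of ERD14 beside 400 FPKM of dehydrin 1a.

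**Figure D3:**
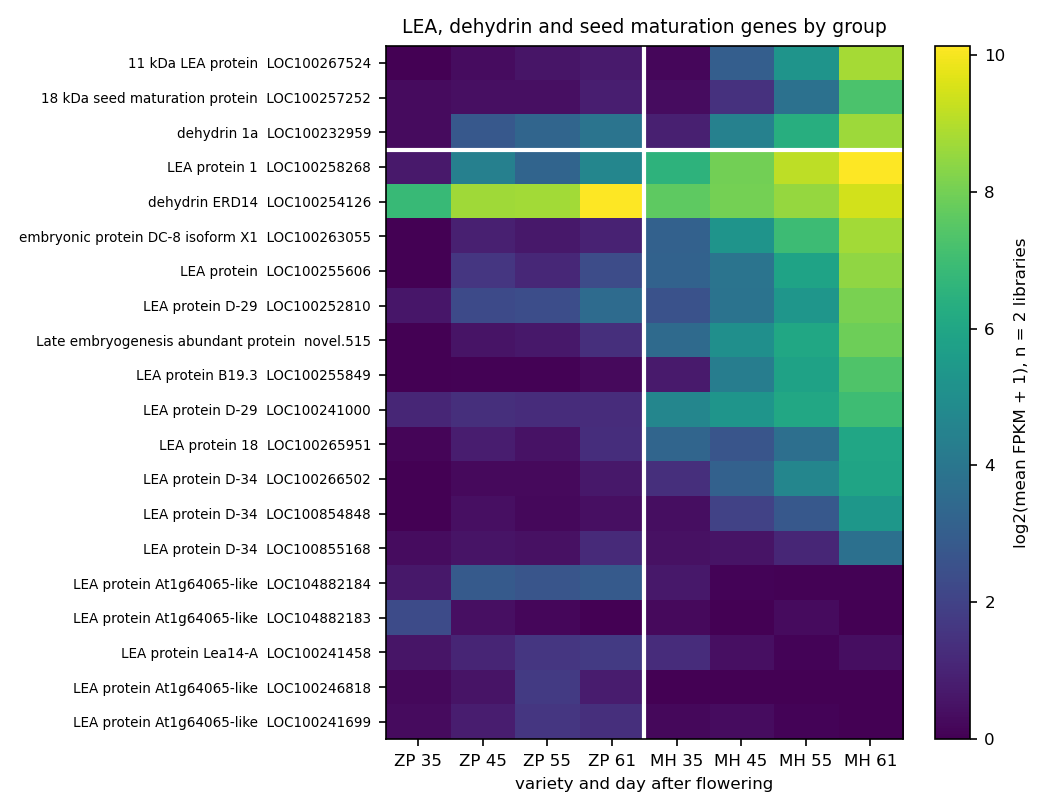
Group means of the 3 members (above the white line) and the 17 other LEA, dehydrin and seed maturation genes, as log2(mean FPKM + 1) by colour, with ZP days to the left and MH days to the right (n = 2 libraries a cell). Most rows brighten from left to right within MH and stay dark in ZP, while dehydrin ERD14 is bright in both and the 5 LEA_2 genes at the bottom are mostly brighter in ZP.

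A list drawn from Pfam domains instead of descriptions (LEA_1, LEA_3, LEA_4, LEA_5, LEA_6, seed maturation and dehydrin domains), also chosen after the values were seen, held 20 genes beside the members, 10 of them absent from the description list. The LEA_2 domain was left out, and the rest of the 20 were already counted above, so the lists are not independent. On day 61, 2 of the 20 were higher and 16 lower in ZP (all genes 55.5% higher and 19.2% lower). Of the 10 absent from the description list, 1 was higher and 7 were lower. Between days 35 and 61, 17 of the 20 rose and none fell in MH (all genes 15.8% higher and 52.1% lower). Of the same 10, 7 rose and none fell. LOC104880479, which the table calls uncharacterized, had 3.18 ± 0.00453 FPKM in ZP and 363 ± 41.3 FPKM in MH on day 61 (SD, n = 2 each). LOC100263962, a relative of the soybean SLE2 protein of the Em type, had 0.112 ± 0.0538 FPKM in ZP and 52.9 ± 11.3 FPKM in MH. In the opposite direction, LOC100260685, described as an auxin-induced protein, had 139 ± 22 FPKM in ZP and 29.7 ± 5.07 FPKM in MH (log2 difference 2.19 ± 0.20).

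Genes with the course most like each member were ranked by Pearson's r of log2(FPKM + 1) over the 16 libraries, among 5192 described genes that reached a mean of 10 FPKM in some group. The libraries fall into 8 groups of 2 that share variety and day, so r describes likeness only. LOC100267524 was most like the D-34 type gene LOC100854848 (r = 0.989), LOC100264271, the drought-responsive factor DREB2D (0.988), LOC100257252 (0.985), LOC100264893, an aspartyl protease (0.982), and LOC100251949, whose description begins with poly [ADP-ribose] (0.98). DREB2D, named for the Arabidopsis factors that bind dehydration-responsive elements, had 0.178, 0.17, 0.253 and 0.426 FPKM in ZP and 0.147, 6.09, 37.1 and 166 FPKM in MH as means of days 35, 45, 55 and 61.

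For LOC100257252 the most alike were LOC100246005, a GPI-anchored protein (r = 0.994), LOC100267524, LOC100244487, a succinate dehydrogenase (0.983), LOC100256303, a glucose and ribitol dehydrogenase (0.982), and LOC100854848 (0.979). The succinate dehydrogenase had day 61 means of 0.192 FPKM in ZP and 173 FPKM in MH, and 4.44 FPKM in MH on day 55. Dehydrin 1a had a different set, with the peroxisomal acetate ligase AAE7, LOC100267152 (r = 0.971), the glycine-rich protein DC7.1, LOC100257132 (0.963), the RPM1-interacting protein LOC100241554 (0.954), the D-29 type gene LOC100252810 (0.951) and the ABC transporter LOC100249647 (0.950). These had higher levels in ZP than the genes alike to the LEA members, with AAE7 at 30.9 FPKM in ZP and 95.4 FPKM in MH on day 61. Among the members r was 0.985 between LOC100267524 and LOC100257252, 0.927 between LOC100267524 and dehydrin 1a, and 0.900 between LOC100257252 and dehydrin 1a.

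The transcripts of storage proteins and oil body coats, which seeds make before they dry, were already high in MH on day 35. As a share of its MH mean on day 61, LOC100267524 stood at 0.0312% on day 35, 1.64% on day 45 and 8.47% on day 55 in MH. LOC100257252 stood at 0.162%, 1.15% and 8.38% and dehydrin 1a at 0.22%, 5.25% and 20.2%. On the same scale the storage globulin cruciferin CRU1, LOC100246409, was at 47.3%, 102% and 93.4%, and 2S albumin, LOC100252101, at 41%, 160% and 125%. The oil body protein oleosin, LOC100249321, was at 103%, 70.6% and 77.3%.

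In ZP the order differed among these genes. By day 61 ZP had 9.99% of the MH day 61 mean of the oleosin, 1.49% of 2S albumin and 0.227% of CRU1, beside 3.45% of dehydrin 1a, 0.514% of LOC100257252 and 0.153% of LOC100267524. Among 13 oil body coat genes, 12 rose in ZP and 5 in MH between days 35 and 61, and of 20 seed storage genes 15 rose in ZP and 8 in MH. By median-ratio scaling 10 oil body genes rose in ZP and 7 in MH, and 15 and 11 storage genes. By quantile normalization it was 11 and 6 oil body genes and 16 and 12 storage genes. Of all genes 31.9% rose in ZP and 15.8% in MH, so the base rates of the varieties also differed. The antioxidant enzyme 1-Cys peroxiredoxin, LOC100259564, which accumulates in dry seeds of other plants, had means of 1.14, 1.74, 2.52 and 12.8 FPKM in ZP and 43.4, 43.9, 157 and 819 FPKM in MH on days 35, 45, 55 and 61. It was lower in ZP on all 4 days and rose in both varieties (2.69 ± 0.29 in ZP and 4.21 ± 0.29 in MH, adjusted p = 2.54e-06 and 3.23e-08, limma). Of the 5 antioxidant genes listed, 2 rose and 2 fell in ZP, and 2 rose and 3 fell in MH (35.0% and 52.1% of all genes fell). On day 61, 1 was higher and 4 were lower in ZP (all genes 55.5% and 19.2%). The higher one was catalase GCAT, the most abundant of the 5, at 3447 FPKM in ZP and 122 FPKM in MH (log2 difference 4.81 ± 0.16). Metallothionein LOC109122806 fell in both varieties (-1.55 ± 0.37 in ZP and -2.70 ± 0.37 in MH).

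**Figure D4:**
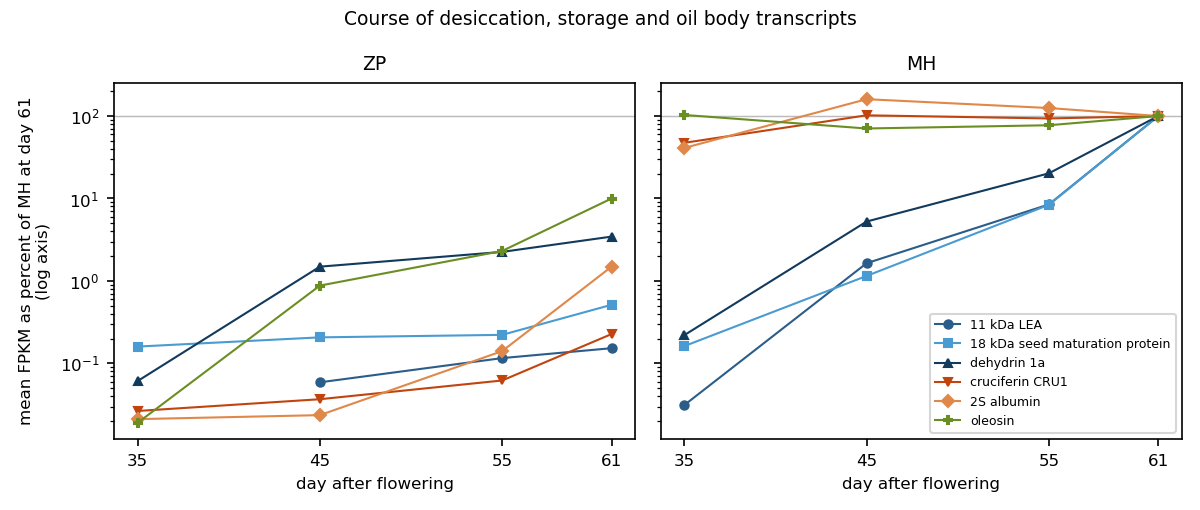
Group means of the 3 members, 2 storage proteins and an oleosin, as a percentage of each gene's MH mean on day 61 on a log axis, against the day after flowering, with ZP on the left and MH on the right. In MH the storage and oleosin lines start at 41% to 103% on day 35 and the member lines start below 1%. LOC100267524 has no point in ZP on day 35, where it was listed at 0.

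Relatives of Arabidopsis regulators of seed maturation formed a list of 18 genes, which holds 2 VAL genes, relatives of B3 repressors of the seed programme, beside factors that promote it. On day 61, 4 were higher and 12 lower in ZP, where 55.5% of all genes were higher and 19.2% lower. The list's median difference was -1.38, -1.65, -2.09 and -2.0 on days 35, 45, 55 and 61, beside 0.24, 0.68, 0.64 and 0.56 for all genes. Without the VAL genes, a split made after seeing the data, 3 of 16 were higher and 11 lower on day 61, with a median of -2.75. ABI3, LOC100854233, had means of 0.615, 5.8, 5.42 and 13.1 FPKM in ZP and 210, 171, 226 and 236 FPKM in MH. It was lower in ZP on each day and rose in ZP (3.05 ± 0.22, adjusted p = 5.19e-08, limma), while its change in MH, 0.17 ± 0.22, did not pass the test. On day 35, when LOC100267524 was at 1 and 4 fragments in the MH libraries, the ABI3 mean was 210 ± 17.5 FPKM there (SD, n = 2).

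The FUS3 genes fell in MH between days 35 and 61 (log2 change -2.74 ± 0.18 and -1.64 ± 0.24). FUS3, LOC100244687, had means of 0.0123, 1.24, 1.66 and 3.32 FPKM in ZP and 35.3, 6.01, 8.05 and 4.46 FPKM in MH, and on day 61 its difference of -0.36 ± 0.18 did not pass the test. The FUS3-like gene LOC100855410 had 2.49 FPKM in ZP and 8.57 FPKM in MH on day 61, after 0.309 FPKM in ZP and 29.5 FPKM in MH on day 35. The VAL genes VAL1 (LOC100260494) and VAL2 (LOC100251742) had 11.6 and 15.2 FPKM in ZP and 28.2 and 5.34 FPKM in MH as day 61 means.

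Of the bZIP factors, ABI5 itself, LOC100247734, had means of 0.941, 1.95, 1.44 and 1.15 FPKM in ZP and 11.8, 11, 17.2 and 23.3 FPKM in MH, and rose in MH (0.92 ± 0.12, adjusted p = 1.71e-05, limma) but not past the test in ZP (0.14 ± 0.12). The ABI5-like gene LOC100255346 was lower in ZP on every day, with 6.34 FPKM in ZP and 84.1 FPKM in MH on day 61. LOC100243434 and LOC104880856, also described as ABI5-like, were higher in ZP on every day, with 56.4 and 18.5 FPKM in ZP and 16.9 and 3.16 FPKM in MH on day 61. LOC100266389, another ABI5-like gene, had 20.1 FPKM in ZP and 25.1 FPKM in MH.

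The DOG1-like gene LOC100256671, a relative of the Arabidopsis dormancy gene DOG1, was lower in ZP on every day. Its means were 0, 0.0769, 0.183 and 0.571 FPKM in ZP and 5, 13.7, 36.4 and 98.2 FPKM in MH, and it rose in MH by 4.05 ± 0.12 (adjusted p = 1.44e-11, limma). The second DOG1-like gene, LOC100245234, had 1.29 FPKM in ZP and 44.4 FPKM in MH on day 61. The 23 tested genes of abscisic acid synthesis and signalling had a median difference on day 61 of 0.64 beside 0.56 for all genes, with 13 higher and 7 lower in ZP (8 and 9 by quantile normalization), and so were near all genes. The receptor PYL9, LOC100243084, had 131 FPKM in ZP and 43.6 FPKM in MH on that day. The raffinose family sugar enzymes, whose products protect many dry seeds, were 6 higher and none lower in ZP out of 9 on day 61 (3 and 2 by quantile normalization), not far from the 55.5% of all genes that were higher. Between days 35 and 61, 4 of the 9 fell in each variety (in MH 1 by quantile normalization), beside 35.0% of all genes in ZP and 52.1% in MH.

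Some features of the whole ovules moved with these results, and others did not. The 20 storage genes took 0.05% to 0.894% of all FPKM in ZP libraries and 15.4% to 44.6% in MH libraries. The 15 embryo markers (8 of them oleosins) summed to 32.5 to 795 FPKM in ZP and to 3358 to 9112 FPKM in MH, and the 7 that are not oil body proteins summed to 28.8 to 96.1 FPKM in ZP and to 185 to 891 FPKM in MH. NF-YB6, a LEC1-type factor, carried most of the MH sum of these 7, at 42.5 FPKM in ZP and 212 FPKM in MH on day 61, and at 1.76 FPKM in ZP and 614 FPKM in MH on day 35. The other 6 summed to 26.8 and 27.2 FPKM in ZP and 204 and 237 FPKM in MH on day 35, but to 27.5 to 36.5 FPKM in ZP and 9.35 to 20 FPKM in MH on the later days. On day 61, 5 of the 7 had the higher mean in ZP, among them WOX8 at 20.3 FPKM in ZP and 2.33 FPKM in MH and AIL6 at 10.5 FPKM in ZP and 3.21 FPKM in MH. In ZP on day 35, 1 oleosin of the 15 markers was at 0 FPKM in both libraries, and in the other groups none was. The 6 endosperm markers summed to 89.3 to 197 FPKM in ZP and 42.5 to 69.9 FPKM in MH, with up to 2 at 0 in both libraries of a group in MH and 1 in ZP, and the 5 seed coat markers to 529 to 977 FPKM in ZP and 433 to 853 FPKM in MH. The 39 green tissue markers summed to 1794 to 6606 FPKM in ZP and 107 to 2162 FPKM in MH, and the 99 berry flesh and skin markers to 2603 to 7614 FPKM in ZP and 3252 to 5422 FPKM in MH. Their part in the members' levels was not tested, and in whole ovules fewer embryo cells and less transcript per cell cannot be told apart.

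Some libraries stood apart from their replicate. In ZP the storage gene CRU1 was at 0.0589, 0.173 and 0.163 FPKM in replicate 1 and at 32, 44.4 and 75 FPKM in replicate 2 on days 35, 45 and 55. On day 61 it was at 50.8 FPKM in replicate 1 and 223 FPKM in replicate 2. A setting without the 3 replicate 2 libraries of days 35, 45 and 55 was added after seeing the data. It leaves 1 library in each of those ZP groups. ZP minus MH was then -2.58 and -4.91 for LOC100267524, -1.12 and -3.41 for LOC100257252 and -1.45 and -3.34 for dehydrin 1a on days 45 and 55. The description list then lost 2 genes to the filter, and of 15 tested 0 were higher and 11 lower on day 35, 2 and 10 on day 45, 3 and 11 on day 55, and 4 and 11 on day 61, and 11 rose and none fell in ZP between days 35 and 61. In MH all 3 members were higher in replicate 1 than in replicate 2 on days 45, 55 and 61, by 1.16 to 2.42 times. The summed FPKM of those libraries was also higher in replicate 1, at 528211, 513100 and 527177, than in replicate 2, at 433890, 424700 and 457187, and its part in the difference was not tested.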

How the data were processed

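The table deposited by the authors gives FPKM per gene in 16 libraries (total RNA, Illumina NovaSeq X Plus per the labels' protocols), with gene positions and database descriptions per the file headers. The aligner, counter and strand setting are not given in the sources used here, and the table holds no counts. Positions of 12540 genes matched to RefSeq were identical to assembly ASM3070453v1.

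A gene had to reach 1 FPKM in 2 or more libraries (12637 of 13411 did), and these were tested on log2(FPKM + 1) with limma 3.58.1 in R 4.3.3, mean-dependent prior variance, 1 mean for each of 8 groups, 8 residual degrees of freedom, two-sided, Benjamini-Hochberg adjusted over all genes, called under 0.05. The interaction F-test had 3 terms. Tables were made with Python 3.11.15, pandas 2.3.3 and numpy 2.4.6. The fit and the depth estimate were tested on simulated data. The spacing of low FPKM values gave the relative depth of the libraries, and the product of step and gene span its scale: 4865 genes (36.3%) had whole steps in all libraries within 0.06 of a step, up to 400 steps, and 873 of the 4217 of these with a span gave the most common product, so depths are approximate. As a check on the step size, 49.6 to 53.3% of the low fragment numbers in each library were odd.

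The members and all gene lists were chosen with earlier results of these data known. Lists were found by words in the descriptions. Named by rule were the 3 members and the LEA, dehydrin and seed maturation genes whose highest group mean was at least 10 FPKM (at most 25). Up to 12 maturation regulators by highest mean and the 5 described genes most alike to each member were also named by rule. The top 3 of the antioxidant and abscisic acid lists were named. Of the top 3 of the other lists not all were named, and that choice was made with their values known. Genes named outside these rules (LOC100262363, the LEA_2 gene, those found by Pfam domain and the embryo markers NF-YB6, WOX8 and AIL6) were chosen after their values were seen. Alternatives were a pseudocount of 0.1, no filter, a filter of 5 FPKM, quantile and median-ratio scaling, rescaling without storage, oil body and desiccation genes, a constant prior variance, the replicate block, and leaving out libraries. No sequences were used here.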

Additional observations from a re-analysis of the deposited data

Results flagged for a closer look

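For each gene below but LOC100262363, which is given without a test, the time course differed between the varieties. The test was the interaction F-test of limma with Benjamini-Hochberg adjustment over all genes, which called 78.9% of all genes tested. The value given is the change in log2(FPKM + 1) between days 35 and 61 in ZP minus that in MH. A negative value means a smaller rise, or a larger fall, in ZP on that scale. The scale shrinks differences between low values, so a gene low in ZP can have a negative gap despite a larger fold rise there. LOC100265951, for instance, had means of 0.0969 and 1.53 FPKM in ZP and 8.9 and 62.9 FPKM in MH on these days. Of the 17 other LEA, dehydrin and seed maturation genes, 6 had a positive and 11 a negative gap. With a pseudocount of 0.1, 7 and 9 were called. No explanation was tested.

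Among the LEA and dehydrin genes the largest such gaps were -6.38 for LOC100255849 (B19.3), -4.66 for LOC100263055 (DC-8) and -4.57 for LOC100854848 (D-34). LOC100266502 had -3.97, a LEA gene without a RefSeq identifier -3.00, LOC100255606 -2.95, LOC100252810 -2.58, LOC100855168 -2.38, LOC100241000 -2.14 and LOC100265951 -1.49. LEA protein 1, LOC100258268, had 0.38, having risen by 3.95 in ZP and 3.57 in MH. Its ZP minus MH difference was -5.88, -3.52, -5.90 and -5.50 on days 35, 45, 55 and 61, nearest to 0 on day 45. Dehydrin ERD14, LOC100254126, had 1.46.

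Of the genes found by Pfam domain, which were taken up after their values were seen, LOC100265515 had -5.32, LOC100263962 -3.74, LOC104880479 -1.98, LOC104880824 -0.79 and LOC100260685 1.90. LOC100262363, between the 2 members, had -4.19, given as a description because it was picked with its values seen.

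Of the maturation regulators, LOC100256671 (DOG1-like) had -3.40 and LOC100247734 (ABI5) -0.78. The gap was positive for LOC100244687 (FUS3) at 4.80, LOC100855410 (FUS3-like) at 3.04, LOC100854233 (ABI3) at 2.89, LOC100255346 (ABI5-like) at 2.39, LOC100251742 (VAL2) at 2.34, LOC100243434 (ABI5-like) at 1.04, LOC104880856 (ABI5-like) at 0.83, LOC100260494 (VAL1) at 0.58 and LOC100266389 (ABI5-like) at 0.23.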

How the results depend on the processing

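The numbers of the 17 other LEA, dehydrin and seed maturation genes called stayed within 1.5 times under every alternative run. Leaving out each library in turn gave 10 to 13 calls for ZP against MH on day 35, 13 to 15 on day 45, 13 to 15 on day 55, 15 to 16 on day 61, 11 to 15 for day 61 against day 35 in ZP, 13 to 14 in MH and 16 to 17 for the interaction. With the replicate number as a block the calls were 12, 15, 15 and 16 for ZP against MH on days 35, 45, 55 and 61, 14 over time in ZP, 13 in MH and 17 for the interaction, so the pairing by number changed 1 count. The numbers were not taken to pair the libraries: over 28 pairs of groups the correlation of the difference between replicates ran between -0.597 and 0.728, above 0.1 in 11 and under -0.1 in 6, so some groups shared a replicate difference and others had the opposite one. Over all alternatives the members' ZP minus MH difference on day 61 ran between -9.17 and -7.83 for LOC100267524, between -7.45 and -6.30 for LOC100257252 and between -5.57 and -4.47 for LOC100232959. On day 35 it ran between -0.08 and 0.07 for LOC100257252, so no direction can be given there.

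Single-gene results were recomputed for the 12 maturation regulators named by rule. They were also recomputed for the LEA and dehydrin genes, by description or Pfam domain, that reached a group mean of 10 FPKM. Of these results 5133 kept their side of the threshold, 70 lost the call, 33 gained one and 14 turned sign, all 14 under another scaling. A turn of sign was looked for only where a call was made, and not in the interaction. The other genes named, members apart, were not compared in this way. Under median-ratio scaling LOC100254126 (ERD14) had ZP minus MH of -0.23, -0.66 and -0.17 on days 45, 55 and 61, and -0.12, -0.54 and -0.03 when rescaled without storage, oil body and desiccation genes. LOC104880824 on day 45 had -0.68 by quantile normalization, -0.53 by median-ratio scaling and -0.51 when rescaled. LOC100251742 (VAL2) on day 55 had -0.36, -0.34 and -0.23 in the same order. In MH between days 35 and 61, median-ratio scaling gave 0.50 for LOC100260494 (VAL1) and 0.19 for LOC100266389. The same scalings brought the median of all genes, 0.24 to 0.68 as deposited, closer to 0, between -0.02 and 0.19. Depth limits the ZP levels of LOC100267524 and LOC100257252, which rest on 0 to 23 fragments a library, and 2 libraries a group limit every error given.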
